A study of Mus musculus with 16 samples.

Results

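Axon guidance ligands and receptors are the secreted and membrane-bound proteins that steer growing neurites: semaphorins and their plexin and neuropilin receptors, ephrins and their Eph receptors, slits and their Robo receptors, and netrins and their Unc5 receptors. Members were taken by gene symbol, and 72 features with such a symbol were in both count tables, of 55738 features in the table of the untreated experiment and 56980 in that of the interferon gamma (IFNγ) experiment. Of the 72, 68 were ligands or receptors of the 9 families, and 4 were not (Unc5cl, a signalling protein with part of its name in common, and the antisense transcripts Plxna4os1, Plxna4os2 and Plxna4os3). By family there were 20 semaphorins, 14 Eph receptors, 9 plexins, 8 ephrins, 4 netrins, 4 Unc5 receptors, 4 Robo receptors, 3 slits and 2 neuropilins.

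Semaphorins act through plexins, with neuropilins as co-receptors for most secreted class 3 semaphorins, and plexin signalling loosens integrin adhesion and the actin cytoskeleton. Ephrins are tethered to the membrane, so ephrins and Eph receptors signal between touching cells in both directions, while slits and netrins are secreted and act on Robo receptors and on DCC, neogenin and Unc5 receptors. All 4 systems are used outside the nervous system in vessels and epithelia, and in pancreatic cancer slit and Robo genes and semaphorin genes belong to a pathway known to be altered in tumours.

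The RNA came from KPC1199, a mouse pancreatic ductal adenocarcinoma cell line grown from a tumour of the KPC model, in which Pdx-driven Cre recombinase turns on mutant alleles, mutant Trp53 among them, in pancreatic epithelium, so every library carried the alleles of that model. Cells received lentiviral CRISPR-Cas9 with either the guide Sin3Bsg1 against Sin3b, which encodes a scaffold of a histone deacetylase co-repressor complex, or a control guide, sgCtrL. In the untreated experiment there were 2 libraries of each genotype, and in the IFNγ experiment there were 3 libraries in each of 4 groups: sgCtrL and Sin3Bsg1, each without IFNγ or with 10 ng per ml IFNγ for 24 hours. The knockout rests on 1 guide, the labels do not say whether replicates were separate cultures, and the study's methods speak of independent experiments only for its results in general. The p-values measure the spread between these libraries, which may be technical.

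Depth was 29683181 to 32311721 counts per library in the untreated experiment and 18128055 to 27056903 in the IFNγ experiment. Sin3b itself, given as counts scaled to library size (CPM), stood at 88.0 and 82.9 in sgCtrL and 36.3 and 33.9 in Sin3Bsg1 in the untreated experiment, a log2 fold change of -1.28 ± 0.05 (SE), and it fell by 1.24 without IFNγ and by 1.22 with IFNγ. The transcript was thus lower in every library labelled Sin3Bsg1 and was still present there. Of 7 epithelial markers, keratins among them, 6 were over 1 CPM in every group and the sums are given with the comparisons. Endothelial markers summed to at most 1.73 CPM, with Cdh5 and Tie1 at 0 in every library, leukocyte markers to at most 7.06 CPM and Schwann cell markers to at most 2.77 CPM. The library sgCtrL with IFNγ replicate 1 stood apart from its replicates, since chi-square averaged over genes came to 22.3 and 18.6 for its pairs, and to 2.42 to 9.32 for every other pair of replicates.

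Levels were first compared per length, as transcript abundance scaled to gene length and library size (TPM), as mean ± SD over the libraries of a table. Plxnb2, a receptor for class 4 semaphorins, had the highest level in the untreated experiment at 199 ± 4.78 TPM (n = 4) and 159 ± 12.2 TPM in the IFNγ experiment (n = 12). Sema3a, a secreted repellent that binds neuropilins, reached 102 ± 12.6 TPM and 167 ± 24.0 TPM in the same order. In the IFNγ experiment the libraries of Sema3a and Plxnb2 overlapped, so their order there is within the spread. Epha2, a receptor for A-type ephrins often high in carcinoma, stood at 108 ± 4.64 TPM and 65.8 ± 6.66 TPM.

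The other families are given by their highest member in each experiment. The secreted ligand Slit2 was at 39.7 ± 5.27 TPM in the untreated experiment and 44.1 ± 8.04 TPM in the IFNγ experiment, and Efnb2, the transmembrane ligand of B-type Eph receptors, was at 53.6 ± 6.93 and 75.6 ± 8.17 TPM. Nrp2, a co-receptor of Sema3c and Sema3f, was at 62.4 ± 13.8 and 88.9 ± 8.36 TPM, and Unc5b, a netrin receptor, at 67.7 ± 7.22 and 56.6 ± 6.27 TPM. Among the netrins Ntn4, a laminin-related secreted ligand, was highest in the untreated experiment at 18.1 ± 2.37 TPM (Ntn1 0.883 ± 0.503 TPM), and Ntn1 in the IFNγ experiment at 35.5 ± 4.81 TPM (Ntn4 10.0 ± 1.61 TPM). The Robo family was low, its highest member Robo2 being at 0.520 ± 0.0961 and 2.17 ± 0.853 TPM. Slit2 was thus present with little transcript for its receptors. Of the 72 members, 50 had enough counts to be tested in each table, 49 of them in both, and 21 in neither. Those 21 reached at most 11 counts in any untreated library and 16 in any IFNγ library, and among them were Epha1, Epha3, Epha5, Epha6, Epha7, Epha8, Epha10 and Ephb1, so the Eph receptors tested were Epha2, Epha4, Ephb2, Ephb3, Ephb4 and Ephb6.

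**Figure D1:**
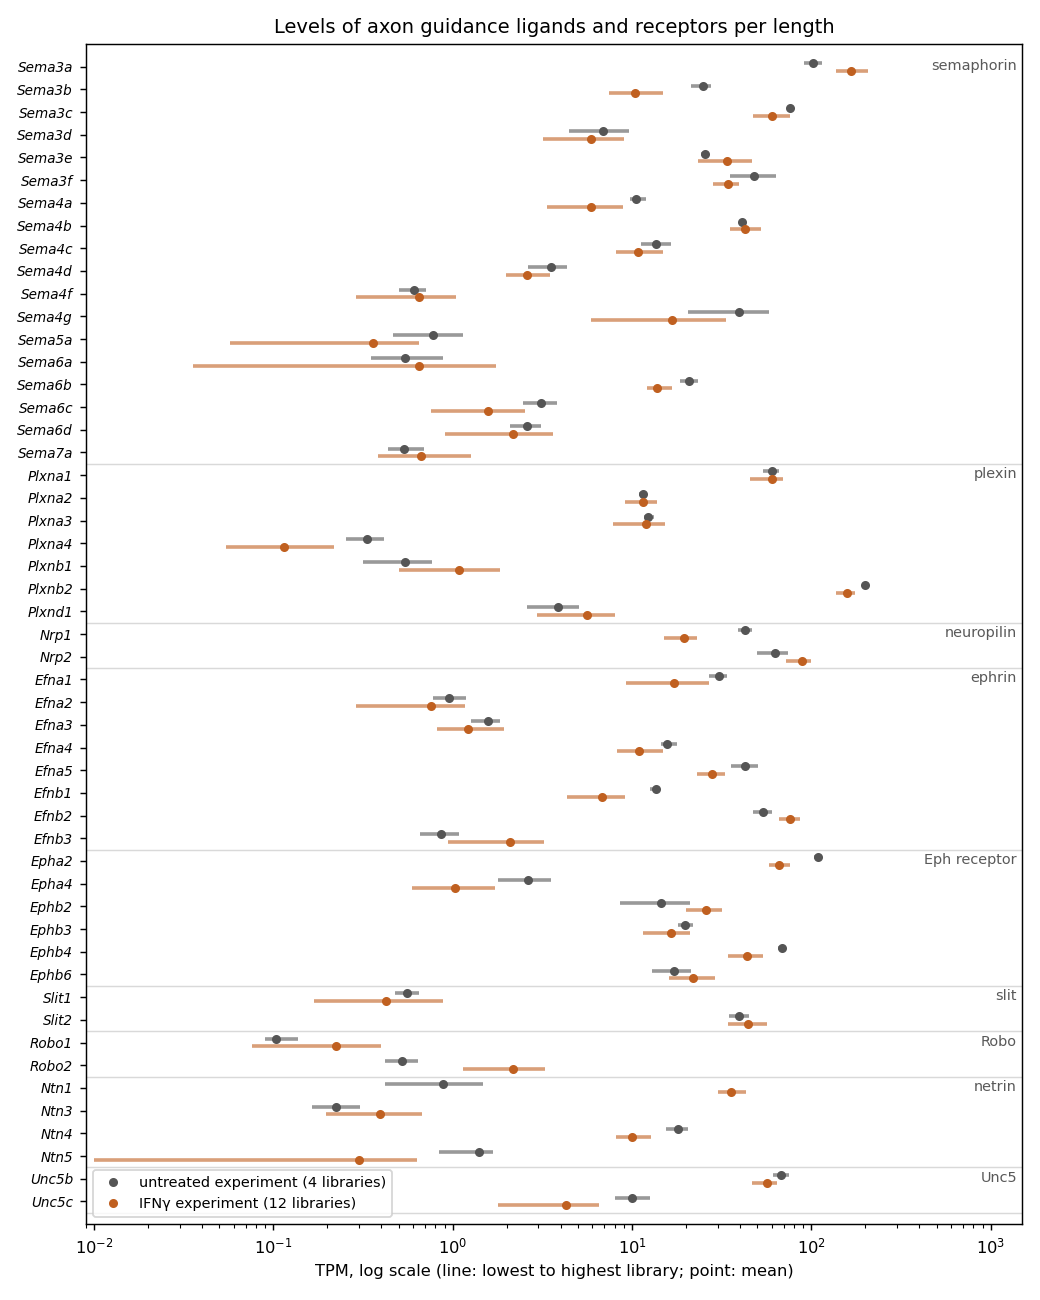
Levels of the 51 members tested in at least 1 table, by family, in TPM on a log axis. Points are means and lines run from the lowest to the highest library for the untreated experiment (grey, 4 libraries) and the IFNγ experiment (orange, 12 libraries), and the line of Ntn5, whose lowest library was 0, is cut at the left edge; Plxnb2, Sema3a and Epha2 lie at the right and the Robo receptors at the left.

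Several members differed in level between the sgCtrL libraries of the experiments. Netrin-1 (Ntn1), a secreted guidance cue, was at 1.30 TPM in sgCtrL of the untreated experiment and 37.3 TPM in sgCtrL without IFNγ of the other, 28.7 times as high. Robo2 went from 0.595 to 3.15 TPM, and Unc5c, another netrin receptor, from 11.6 to 3.73 TPM in the opposite direction. These tables were made apart and the difference was not tested, so experiment and culture cannot be told apart.

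The first question was which members differ between Sin3Bsg1 and sgCtrL. In the untreated experiment 29 of the 50 tested passed an adjusted p of 0.05 in edgeR's quasi-likelihood test, 9 higher and 20 lower in Sin3Bsg1, which is 58% of members where 30.7% of all 14820 genes tested passed. Higher calls were 18% of members against 15% of all genes, and lower calls were 40% against 15.7%, with a median log2 fold change of -0.20 over the members and 0.0033 over all genes. Without IFNγ, 24 of 50 passed, 11 higher and 13 lower, 48% against 17.2% of 14913 genes (7.89% higher and 9.33% lower over all genes). With IFNγ 19 of 50 passed, 9 higher and 10 lower, 38% against 16.5% (8.62% higher and 7.9% lower over all genes). Groups did not overlap for 41, 36 and 27 of the 50 members in these comparisons, 82%, 72% and 54%, against 63.2%, 39.2% and 30.4% of all genes tested. The median log2 fold change over members was -0.03 without IFNγ and -0.03 with it. Many differences were small, since 17 of the 29 members called in the untreated experiment, 13 of the 24 without IFNγ and 11 of the 19 with IFNγ were under 0.58 on the log2 scale. Pdgfra, Pdgfrb and Col1a1 carried a fibroblast marker sum of 117 to 118 CPM in untreated sgCtrL and 35.9 to 38.9 CPM in untreated Sin3Bsg1. Without IFNγ the sums were 272 to 281 CPM and 254 to 265 CPM, and with IFNγ they overlapped at 191 to 193 CPM and 178 to 193 CPM. Of the other fibroblast markers listed, Dcn and Lum were at most 0.193 CPM in any library, Col1a2 at most 0.601 CPM and Pdpn at most 1.22 CPM. The epithelial marker sum was 4568 to 4597 CPM in untreated sgCtrL and 6153 to 6214 CPM in untreated Sin3Bsg1, 2990.3 to 3028 CPM and 3215 to 3317 CPM without IFNγ, and 3165 to 3692 CPM and 4181 to 4433 CPM with it. The neuron marker sum was lower in untreated Sin3Bsg1, at 20.8 to 23.1 CPM against 30.8 to 32.2 CPM in sgCtrL, and likewise without IFNγ, at 15.5 to 17.5 CPM against 23.3 to 25.8 CPM. The part of these markers in the member differences was not tested.

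Among the semaphorins, Sema4g rose in each comparison. Sema4g, a transmembrane class 4 semaphorin, was at 49.1 and 43.0 CPM in untreated sgCtrL and 121 and 117 CPM in untreated Sin3Bsg1. In the IFNγ experiment it was at 31.8, 31.1 and 32.7 CPM in sgCtrL and 62.4, 64.4 and 61.6 CPM in Sin3Bsg1 without IFNγ, and at 12.1, 13.8 and 12.4 CPM in sgCtrL and 25.3, 26.5 and 23.6 CPM in Sin3Bsg1 with it. Every Sin3Bsg1 library lay above every sgCtrL library of its comparison. The log2 fold changes were 1.37 ± 0.05 (adjusted p = 3.39e-11), 0.98 ± 0.06 (adjusted p = 1.36e-08) and 0.97 ± 0.07 (adjusted p = 6.39e-08), in that order. In the GENCODE annotation 12.7% of the Sema4g exon bases are shared with Mrpl43 on the opposite strand, and since the strand setting of the counting is not given, reads there cannot be told apart.

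Sema3d, a secreted class 3 semaphorin, fell in each comparison. It was at 26.8 and 29.5 CPM in untreated sgCtrL and 14.5 and 13.6 CPM in untreated Sin3Bsg1, at 22.5, 19.0 and 19.6 CPM in sgCtrL and 9.56, 9.09 and 10.8 CPM in Sin3Bsg1 without IFNγ, and at 27.2, 24.7 and 26.5 CPM in sgCtrL and 14.5, 12.9 and 12.5 CPM in Sin3Bsg1 with IFNγ. The groups did not overlap in any of the comparisons, and the log2 fold changes were -1.0 ± 0.08, -1.05 ± 0.09 and -0.97 ± 0.09, with adjusted p-values of 2.07e-07, 9.87e-07 and 1.31e-06. Sema3a, the most abundant semaphorin, fell by less. It was at 227 and 222 CPM in untreated sgCtrL and 181 and 182 CPM in untreated Sin3Bsg1, and at 383, 369 and 371 CPM in sgCtrL and 281, 277 and 293 CPM in Sin3Bsg1 without IFNγ. Its log2 fold changes were -0.31 ± 0.03, -0.40 ± 0.04 and, with IFNγ, -0.30 ± 0.04, with no overlap of groups in any of the 3.

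Plxnb1, the receptor of Sema4d, was a low-count gene that fell in each comparison. It was at 3.17 and 3.25 CPM in untreated sgCtrL and 1.33 and 1.38 CPM in untreated Sin3Bsg1, at 6.85, 6.85 and 7.22 CPM in sgCtrL and 4.07, 3.05 and 3.18 CPM in Sin3Bsg1 without IFNγ, and at 4.28, 4.27 and 4.64 CPM in sgCtrL and 2.92, 2.10 and 2.71 CPM in Sin3Bsg1 with IFNγ. The groups again stood apart, with log2 fold changes of -1.24 ± 0.24 (adjusted p = 8.98e-04), -1.02 ± 0.16 (adjusted p = 2.44e-04) and -0.77 ± 0.16 (adjusted p = 0.0041). Its relative Plxnb2, far more abundant, was at 639 and 623 CPM in untreated sgCtrL and 609 and 610.4 CPM in untreated Sin3Bsg1, and its log2 fold changes by genotype were -0.05 ± 0.02, -0.01 ± 0.06 and 0.01 ± 0.06, none past the threshold. Plxnd1, the receptor of Sema3e, was at 16.9 and 17 CPM in untreated sgCtrL and 9.68 and 8.72 CPM in untreated Sin3Bsg1, and at 24.5, 24.9 and 25.2 CPM in sgCtrL and 17.1, 19.6 and 17.7 CPM in Sin3Bsg1 without IFNγ. It fell by 0.88 and by 0.46 on the log2 scale (adjusted p = 4.59e-06 and 0.00794), and with IFNγ its value of -0.33 ± 0.12 did not pass (adjusted p = 0.0673).

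The promoter windows of Sema4g, Sema3d and Plxnb1 are shown. These genes passed the threshold in 1 direction by genotype in each comparison, each time with a log2 fold change of at least 0.58 in size. Each window holds 250 bases before and 50 after the RefSeq start of transcription in build GRCm38.p6, on the plus strand, in lower case with CpG dinucleotides in capitals. Sema4g lies at chr19:44989094-44989393, Sema3d at chr5:12382916-12383215 and Plxnb1 at chr9:109095186-109095485.
Sema4g: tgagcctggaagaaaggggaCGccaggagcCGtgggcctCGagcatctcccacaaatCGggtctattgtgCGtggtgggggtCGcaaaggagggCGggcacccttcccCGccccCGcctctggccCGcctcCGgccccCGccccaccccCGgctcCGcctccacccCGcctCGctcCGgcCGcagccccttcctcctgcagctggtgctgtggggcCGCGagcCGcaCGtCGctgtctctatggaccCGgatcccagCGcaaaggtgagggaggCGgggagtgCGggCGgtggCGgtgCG
Sema3d: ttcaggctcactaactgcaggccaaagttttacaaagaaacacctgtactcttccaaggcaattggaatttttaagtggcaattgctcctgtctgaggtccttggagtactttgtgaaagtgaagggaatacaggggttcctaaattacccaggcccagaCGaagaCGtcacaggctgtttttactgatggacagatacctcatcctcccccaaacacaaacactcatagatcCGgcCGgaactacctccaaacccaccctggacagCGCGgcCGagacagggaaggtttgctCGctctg
Plxnb1: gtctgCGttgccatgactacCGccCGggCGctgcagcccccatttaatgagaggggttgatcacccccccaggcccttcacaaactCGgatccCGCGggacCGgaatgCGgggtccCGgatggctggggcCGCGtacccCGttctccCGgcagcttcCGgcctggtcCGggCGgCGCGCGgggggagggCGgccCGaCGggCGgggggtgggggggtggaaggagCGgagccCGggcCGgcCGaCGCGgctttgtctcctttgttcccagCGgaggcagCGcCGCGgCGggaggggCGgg
The windows held 30, 8 and 36 CpG dinucleotides, in that order, where the median was 7 over all 32851 RefSeq windows and 18.5 over the 76 windows of the 60 members with an entry. Among the genes shown, the gene that rose and 1 of the genes that fell were therefore both CpG-rich. The other gene shown that fell, Sema3d, was near the median of all windows. Sema3a, which fell by less than 0.58 in each comparison, held 2 CpG dinucleotides in its window.

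Other semaphorins passed the threshold in 1 or 2 of the genotype comparisons. Sema3f, a ligand of Nrp2, was at 73.3 and 67.9 CPM in untreated sgCtrL and 41.1 and 41.1 CPM in untreated Sin3Bsg1, a log2 fold change of -0.78 ± 0.05 (adjusted p = 1.04e-08). Without IFNγ it was at 42.7, 43.6 and 41.5 CPM in sgCtrL and 39.7, 37.1 and 36.6 CPM in Sin3Bsg1, also with no overlap, and its value of -0.17 ± 0.08 did not pass (adjusted p = 0.151). Sema3b, another secreted class 3 ligand, was at 13.3, 11.9 and 11.3 CPM in sgCtrL and 19.0, 19.3 and 18.7 CPM in Sin3Bsg1 without IFNγ, and at 10.2, 10.6 and 10.2 CPM in sgCtrL and 13.3, 14.9 and 13.3 CPM in Sin3Bsg1 with it. It rose by genotype by 0.64 ± 0.08 and 0.42 ± 0.08, and in the untreated experiment its value was 0.19 ± 0.08 (adjusted p = 0.0704).

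Sema6d, a transmembrane ligand of Plxna1, was at 9.44, 10.4 and 8.07 CPM in sgCtrL and 5.63, 4.57 and 5.20 CPM in Sin3Bsg1 without IFNγ, and at 5.92, 7.59 and 8.33 CPM in sgCtrL and 4.05, 3.23 and 2.79 CPM in Sin3Bsg1 with it. It fell in both, by 0.86 and by 1.12 on the log2 scale (adjusted p = 0.00131 and 2.25e-04), and the untreated value of -0.36 ± 0.13 missed the threshold (adjusted p = 0.0528). Sema6c, of the same class, was at 6.71 and 7.54 CPM in untreated sgCtrL and 5.26 and 4.86 CPM in untreated Sin3Bsg1, a fall of 0.49 that was lost in DESeq2 (adjusted p = 0.0866) and in 2 of the 4 fits that left out 1 library, and its groups also stood apart without IFNγ, at -0.31 ± 0.17 (adjusted p = 0.245). Sema4f was near 1 CPM, at 0.755, 0.793 and 0.535 CPM in sgCtrL and 1.71, 1.57 and 1.20 CPM in Sin3Bsg1 without IFNγ, a rise of 1.09 ± 0.30 (adjusted p = 0.0188, lost in 3 of 12 fits that left out 1 library). Its untreated groups overlapped, at 0.03 ± 0.33 (adjusted p = 0.965), and with IFNγ its value of 0.83 ± 0.28 did not pass (adjusted p = 0.0555). Sema5a, a transmembrane semaphorin with thrombospondin repeats, rose in the untreated experiment, from 2.44 and 2.43 CPM to 5.44 and 5.99 CPM (log2 fold change 1.23 ± 0.18, adjusted p = 6.87e-05). Without IFNγ the Sema5a groups overlapped, at 2.86, 3.26 and 2.73 CPM in sgCtrL and 2.51, 3.0 and 3.14 CPM in Sin3Bsg1.

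In the ephrin and Eph system the A-type receptors Epha2 and Epha4 rose and the B-type receptors Ephb2 and Ephb6 fell. The B-type receptor Ephb4 passed in no genotype comparison, with values of -0.09 ± 0.03 untreated, 0.05 ± 0.05 without IFNγ and 0.03 ± 0.05 with it. Ephb3, also B-type, passed only in the untreated experiment. Ephb2, a receptor of B-type ephrins, was at 48.9 and 46.3 CPM in untreated sgCtrL and 20.2 and 19.9 CPM in untreated Sin3Bsg1. It was at 66.1, 61.2 and 69.1 CPM in sgCtrL and 54.4, 53.6 and 50.9 CPM in Sin3Bsg1 without IFNγ and at 62.6, 61.1 and 59.6 CPM in sgCtrL and 54.7, 51.6 and 47.3 CPM in Sin3Bsg1 with it. Sin3Bsg1 was below sgCtrL with no overlap each time, with log2 fold changes of -1.25 ± 0.06 (adjusted p = 7.23e-10), -0.30 ± 0.06 (adjusted p = 0.00237) and -0.25 ± 0.06 (adjusted p = 0.00864), and the gap in size between the experiments was not tested. Ephb6, a receptor whose kinase domain is inactive, was at 38.7 and 38.4 CPM in untreated sgCtrL and 24.7 and 23.7 CPM in untreated Sin3Bsg1, and at 49.2, 49.4 and 44.5 CPM in sgCtrL and 35.3, 34.3 and 29.3 CPM in Sin3Bsg1 without IFNγ. It fell by 0.67, by 0.53 and, with IFNγ, by 0.35 on the log2 scale, each with separate groups. In the annotation 14.7% of its exon bases are shared with Trpv6 on the opposite strand.

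Epha2 was at 197 and 201 CPM in untreated sgCtrL and 209 and 217 CPM in untreated Sin3Bsg1, at 109.6, 105 and 107 CPM in sgCtrL and 126, 129 and 125 CPM in Sin3Bsg1 without IFNγ, and at 117, 110.3 and 109.8 CPM in sgCtrL and 138, 136 and 129.7 CPM in Sin3Bsg1 with it. These are small differences with tight replicates, log2 fold changes of 0.10 ± 0.03 (adjusted p = 0.0159), 0.24 ± 0.04 (adjusted p = 0.0012) and 0.26 ± 0.04 (adjusted p = 5.78e-04). The untreated call of Epha2 was lost in DESeq2 (adjusted p = 0.0689) and in 2 of the 4 fits that left out 1 library. Epha4, which binds ephrins of both types, was at 3.44 and 3.15 CPM in untreated sgCtrL and 6.25 and 5.66 CPM in untreated Sin3Bsg1, and at 0.971, 1.09 and 1.34 CPM in sgCtrL and 1.98, 1.78 and 2.80 CPM in Sin3Bsg1 without IFNγ. It rose by 0.86 ± 0.16 and 0.95 ± 0.26 (adjusted p = 8.77e-04 and 0.0182), and with IFNγ the value was 0.61 ± 0.25 (adjusted p = 0.111). The call without IFNγ was lost in 3 of the 12 fits that left out 1 library.

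Among the ligands, Efna1, a membrane-anchored ligand of Epha2, was at 19.3 and 19.3 CPM in untreated sgCtrL and 24.5 and 24.4 CPM in untreated Sin3Bsg1, and rose by 0.34 ± 0.07 there and by 0.37 ± 0.11 with IFNγ, where the lowest Sin3Bsg1 library lay below the highest sgCtrL library. Without IFNγ the value was 0.29 ± 0.10 (adjusted p = 0.0601). Efnb2 rose in the untreated experiment, from 110.1 and 112 CPM to 140.3 and 138 CPM (0.33 ± 0.03, adjusted p = 1.32e-06), and was at 178, 179 and 184 CPM in sgCtrL and 188, 172 and 181 CPM in Sin3Bsg1 without IFNγ, where the groups overlapped. Efnb3, a transmembrane ligand at low counts here, was at 2.53, 2.34 and 2.89 CPM in sgCtrL and 3.96, 4.66 and 4.17 CPM in Sin3Bsg1 without IFNγ, and at 1.44, 1.59 and 2.84 CPM in sgCtrL and 3.43, 3.35 and 3.74 CPM in Sin3Bsg1 with it. It rose by 0.72 ± 0.22 and 0.84 ± 0.22 (adjusted p = 0.0304 and 0.0164, the first lost in 6 of 12 fits that left out 1 library), while its untreated groups overlapped at 1.67 and 1.01 CPM in sgCtrL and 1.18 and 1.45 CPM in Sin3Bsg1. The 3 ephrins that passed with IFNγ, Efna1, Efnb1 and Efnb3, were all higher in Sin3Bsg1, but with only the 6 libraries compared in the fit the calls of Efna1 (adjusted p = 0.137) and Efnb3 (adjusted p = 0.0798) were lost. The ephrin lower in Sin3Bsg1 in any genotype comparison was Efna5, in the untreated experiment (-0.46 ± 0.04).

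Slit2 fell in Sin3Bsg1 in each genotype comparison. It was at 170.4 and 164 CPM in untreated sgCtrL and 133 and 134 CPM in untreated Sin3Bsg1, at 157, 144 and 150.0 CPM in sgCtrL and 122, 121 and 131 CPM in Sin3Bsg1 without IFNγ, and at 208, 212 and 211 CPM in sgCtrL and 169.7, 155 and 151 CPM in Sin3Bsg1 with it. No Sin3Bsg1 library reached the lowest sgCtrL library of its comparison, and the log2 fold changes were -0.33 ± 0.03 (adjusted p = 8.44e-07), -0.27 ± 0.05 (adjusted p = 0.0021) and -0.40 ± 0.05 (adjusted p = 5.60e-05). Of its receptors, Robo1 was at the limit of counting, with 20, 29 and 15 counts in sgCtrL and 9, 15 and 8 counts in Sin3Bsg1 without IFNγ and log2 fold changes of -1.21 ± 0.37 without and -1.43 ± 0.38 with IFNγ, and it was not tested in the untreated experiment. Robo2 was at 11.9, 11.1 and 11.8 CPM in sgCtrL and 9.14, 10.7 and 10.3 CPM in Sin3Bsg1 without IFNγ, with a value of -0.21 ± 0.12 (adjusted p = 0.268).

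**Figure D2:**
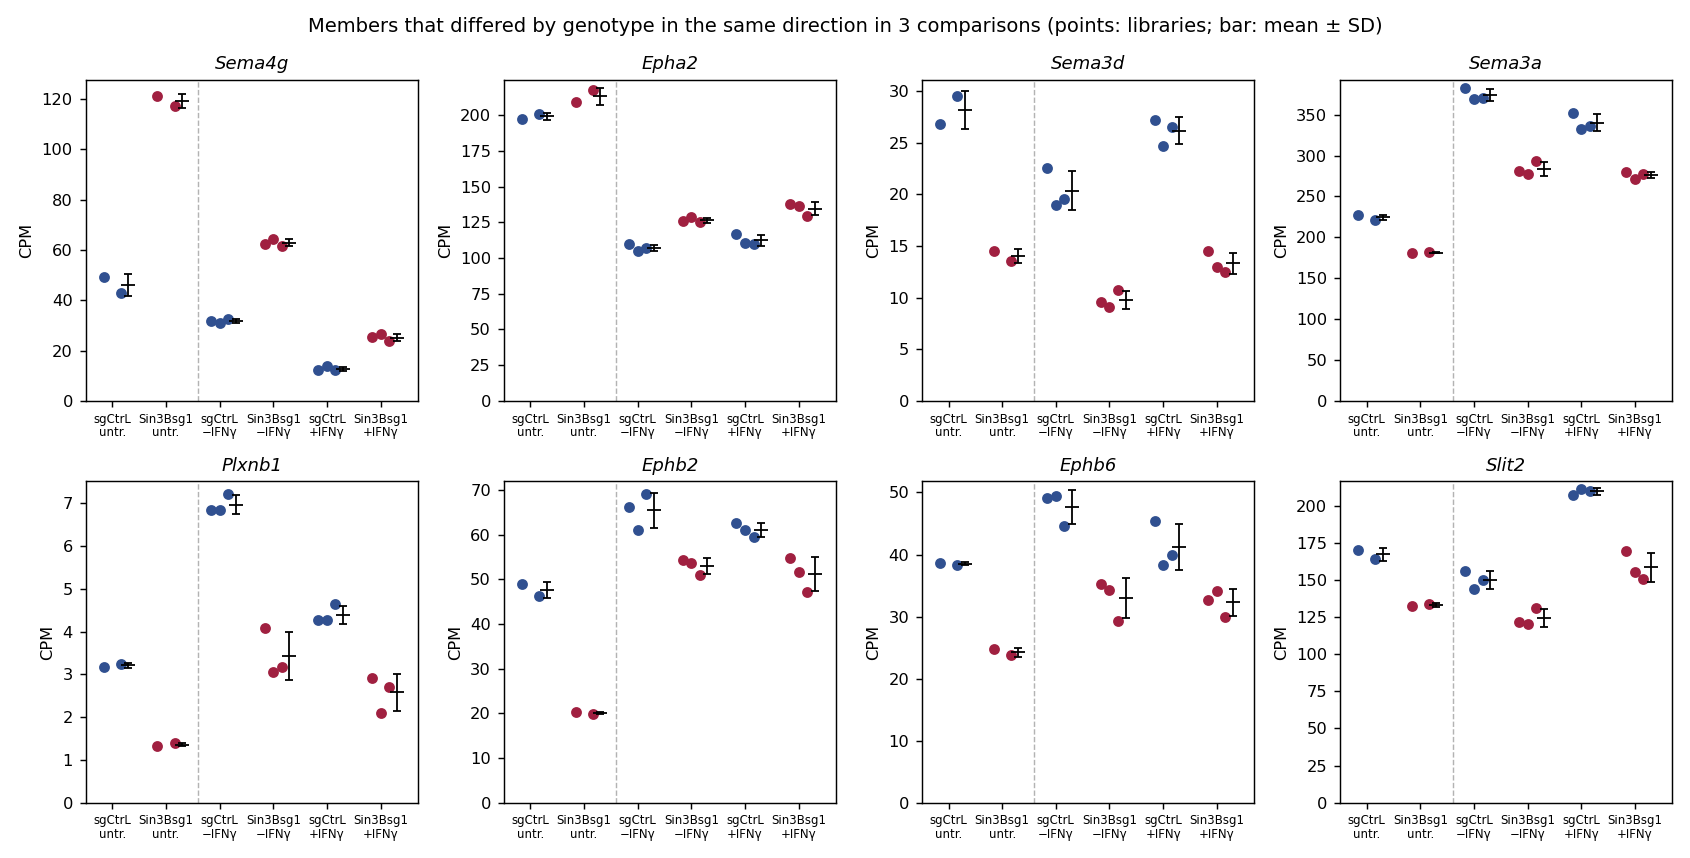
Levels in CPM of 8 of the 9 members called in the same direction in all 3 genotype comparisons, by library, for sgCtrL (blue) and Sin3Bsg1 (red) in the untreated experiment (left of the dashed line, n = 2) and the IFNγ experiment (n = 3); bars are mean ± SD and each axis starts at 0. Sema4g and Epha2 are higher in Sin3Bsg1 each time and the other 6 are lower.

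Netrin-1 and its receptors gave a mixed picture. Ntn1, at very different levels in the experiments, was at 4.14 and 3.11 CPM in untreated sgCtrL and 1.18 and 1.45 CPM in untreated Sin3Bsg1, and at 99.3, 95.3 and 98.4 CPM in sgCtrL and 81.0, 79.3 and 78.9 CPM in Sin3Bsg1 without IFNγ. It fell by 1.47 (adjusted p = 3.42e-04) and by 0.29 on the log2 scale (adjusted p = 1.30e-04), and with IFNγ, at 119, 116 and 113 CPM in sgCtrL and 88.4, 88.2 and 85.5 CPM in Sin3Bsg1, by 0.41 (adjusted p = 4.79e-06). The groups did not overlap. Unc5b was at 209 and 214 CPM in untreated sgCtrL and 174 and 178 CPM in untreated Sin3Bsg1, a fall of 0.26, and at 170.0, 165 and 167 CPM in sgCtrL and 161, 168 and 157 CPM in Sin3Bsg1 without IFNγ, where the groups overlapped. With IFNγ it was higher in Sin3Bsg1, by 0.16 ± 0.05 (adjusted p = 0.0332), a call lost in 4 of the 12 fits that left out 1 library, without a filter on low counts (adjusted p = 0.0729) and when only the 6 libraries compared were fitted (adjusted p = 0.155).

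Unc5c changed direction between the experiments. It was at 23.8 and 20.1 CPM in untreated sgCtrL and 17 and 15.2 CPM in untreated Sin3Bsg1, a log2 fold change of -0.45 ± 0.10 (adjusted p = 0.00214). Without IFNγ it was at 7.55, 6.80 and 5.51 CPM in sgCtrL and 10.9, 11.4 and 11.3 CPM in Sin3Bsg1, a log2 fold change of 0.76 ± 0.16 (adjusted p = 0.00387), and with IFNγ the value was 0.73 ± 0.17. Sema4d, the ligand of Plxnb1, rose from 5.67 and 6.02 CPM to 9.19 and 9.33 CPM in the untreated experiment (0.66 ± 0.12, adjusted p = 6.83e-04) and fell from 6.31, 7.10 and 5.99 CPM to 5.29, 4.87 and 3.96 CPM without IFNγ (-0.46 ± 0.15, adjusted p = 0.0444). The fall is uncertain, since the call was lost in DESeq2 (adjusted p = 0.059), with other size factors (0.0509), without a filter on low counts (0.0563) and in 9 of the 12 fits that left out 1 library, and 13.7% of the Sema4d exon bases are shared with Secisbp2 on the opposite strand. Sema6a had few counts, 56 and 35 in untreated sgCtrL and 24 and 24 in untreated Sin3Bsg1, but 13, 22 and 25 in sgCtrL and 72, 78 and 77 in Sin3Bsg1 without IFNγ, with log2 fold changes of -1.01 ± 0.36 and 1.67 ± 0.43. With IFNγ it had only 7, 2 and 2 counts in sgCtrL and 33, 6 and 21 in Sin3Bsg1. The value there was 2.33 ± 0.63 (adjusted p = 0.0183), and the groups overlapped in CPM. The untreated value became -0.64 without sgCtrL replicate 1 and its call was lost in DESeq2 (adjusted p = 0.162) and in 3 of 4 fits that left out 1 library, and that without IFNγ in 3 of 12. The co-receptor Nrp2 was at 230.1 and 230.4 CPM in untreated sgCtrL and 155 and 157 CPM in untreated Sin3Bsg1 (-0.56 ± 0.03, adjusted p = 5.15e-10), and at 270.2, 267 and 272 CPM in sgCtrL and 278, 276 and 282 CPM in Sin3Bsg1 without IFNγ (0.05 ± 0.05, adjusted p = 0.645).

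The other members called by genotype changed by less than 0.58. Lower in untreated Sin3Bsg1 were the class 4 semaphorin Sema4c (-0.43 ± 0.08), Ntn4 (-0.32 ± 0.06), the plexin Plxna1 (-0.25 ± 0.02), the neuropilin Nrp1 (-0.22 ± 0.04) and Ephb3 (-0.22 ± 0.05), and higher were Sema6b (0.23 ± 0.06) and Plxna2 (0.12 ± 0.04). Without IFNγ the ephrin Efnb1 (0.43 ± 0.10), Sema4b (0.29 ± 0.07) and Sema6b (0.22 ± 0.06) were higher, and Sema4c (-0.29 ± 0.08) and Plxna2 (-0.27 ± 0.08) were lower. With IFNγ Efnb1 was higher (0.48 ± 0.10) and Ntn4 lower (-0.39 ± 0.11) in Sin3Bsg1. Exon bases shared with the opposite strand were 10.3% for Efna4 and Efnb2, 10.9% for Ntn4 and 16.8% for Plxna2 and Sema4c. The 21 members that did not pass in the untreated experiment ranged from -0.74 to 0.57 on the log2 scale, the 26 without IFNγ from -0.32 to 0.76 and the 31 with IFNγ from -0.63 to 0.90.

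The untreated experiment and the libraries without IFNγ share no library, so their genotype differences could be set side by side. Of the 49 members tested in both, 17 were called in both, out of 29 called in the first and 23 in the second, 34.7% where 10.7% of all 13848 genes tested in both were called in both. Of the 17, 13 had the same direction (76.5%, against 89.5% of all genes called in both), with Epha2, Epha4, Sema4g and Sema6b higher and Ephb2, Ephb6, Ntn1, Plxnb1, Plxnd1, Sema3a, Sema3d, Sema4c and Slit2 lower in Sin3Bsg1. The other 4, Plxna2, Sema4d, Sema6a and Unc5c, had opposite directions. Within the IFNγ experiment, 16 members were called by genotype both without and with IFNγ, out of 24 and 19, and all 16 kept their direction, 7 higher and 9 lower. Over all genes 10.8% were called in both and 99.9% of those kept their direction. Across all 3 genotype comparisons 11 of 49 members were called each time (22.4%, against 7.7% of all genes), 9 of them in the same direction (81.8%, against 90.6% of all genes called each time).

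**Figure D3:**
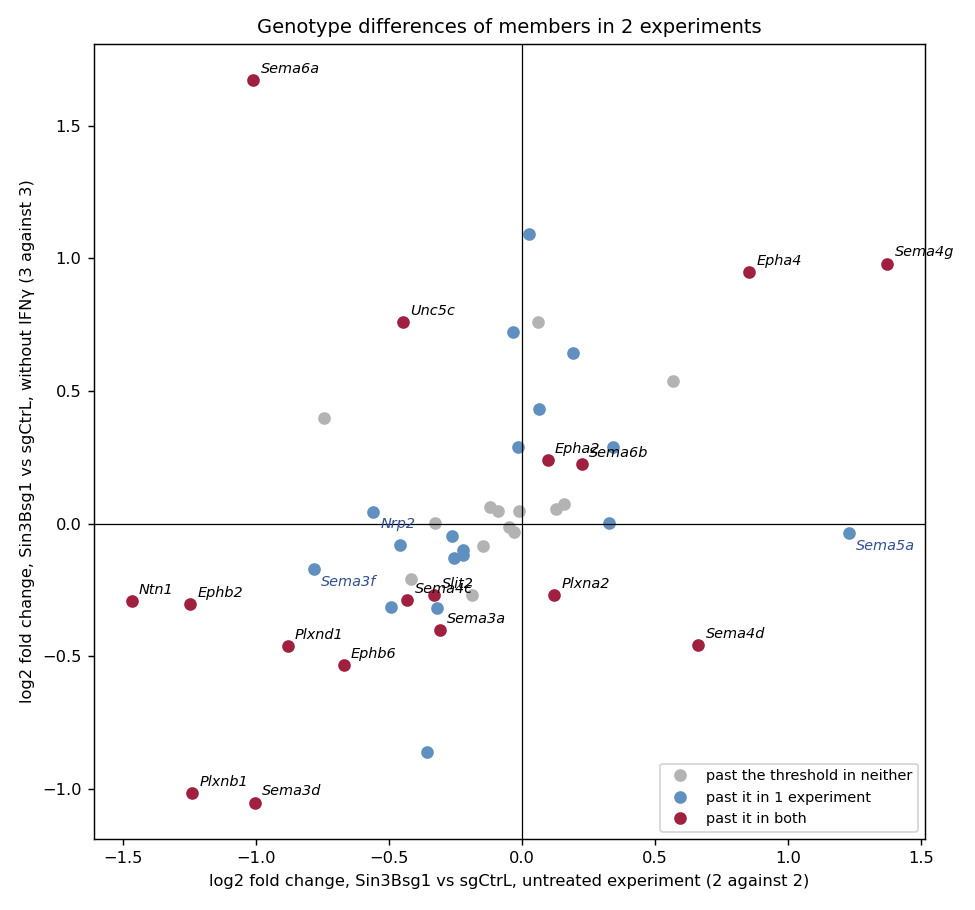
Log2 fold change of Sin3Bsg1 over sgCtrL for the 49 members tested in both experiments, untreated (x axis, 2 libraries against 2) and without IFNγ (y axis, 3 against 3), coloured by the number of comparisons past an adjusted p of 0.05. Of the 17 members past it in both, 13 lie in the upper right and lower left parts and Sema6a, Unc5c, Sema4d and Plxna2 in the others.

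The second question was which members respond to IFNγ, a cytokine of T cells and natural killer cells that acts through JAK kinases. In sgCtrL 29 of 50 members passed, 6 higher and 23 lower with IFNγ, 58% against 30.2% of all genes tested. The split was 12% higher and 46% lower among members, against 15.7% and 14.5% of all genes, with a median log2 fold change of -0.21 over members and -0.00062 over all genes. In Sin3Bsg1 27 of 50 passed, 7 higher and 20 lower, 54% against 28.4% of all genes (16.1% higher and 12.3% lower), with a median of -0.19. Groups did not overlap for 33 of 50 members in sgCtrL (41.5% of all genes) and 36 of 50 in Sin3Bsg1 (45.4% of all genes). Of the members called, 23 passed in both genotypes (46%, against 21.6% of all genes) and all 23 had the same direction, 6 higher (Efna5, Ntn1, Sema3c, Sema3d, Sema3e and Slit2) and 17 lower, as did 99.9% of all genes called in both. Without the library that stood apart the count in sgCtrL was again 6 higher and 23 lower. The summed neuron markers were higher with IFNγ, at 23.3 to 25.8 CPM in sgCtrL and 15.5 to 17.5 CPM in Sin3Bsg1 without it and 80.9 to 92.6 CPM and 84.8 to 85.6 CPM with it. The tubulin gene Tubb3, at 8.72 to 86.4 CPM over the 12 libraries, had most of that sum with IFNγ. Of the other listed neuron markers, Snap25 was at 3.67 to 8.66 CPM and Syp at 0.481 to 1.63 CPM over the same libraries. Syt1 was at most 0.209 CPM and Stmn2 at most 0.0378 CPM, and Rbfox3 and Nefl were at 0 in all of them. The fibroblast marker sums given above were lower with IFNγ and the epithelial sums higher in both genotypes, and their part in the member differences was not tested.

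The members that rose with IFNγ were all secreted or membrane-anchored ligands. Sema3e, the ligand of Plxnd1, was at 79.5, 80.4 and 73.3 CPM in sgCtrL without IFNγ and 153, 141 and 146 CPM with it, and at 74.3, 77.1 and 76.9 CPM and 144, 136 and 132 CPM in Sin3Bsg1. The groups were far apart in both genotypes, with log2 fold changes of 0.92 ± 0.05 (adjusted p = 1.09e-09) and 0.85 ± 0.05 (adjusted p = 2.30e-09). By genotype Sema3e did not pass in any comparison, the values being -0.03 ± 0.04, -0.03 ± 0.05 and -0.10 ± 0.05. Its receptor Plxnd1 fell with IFNγ, from 24.5, 24.9 and 25.2 CPM to 17.9, 15.2 and 15.3 CPM in sgCtrL (-0.63 ± 0.11, adjusted p = 4.56e-04) and from 17.1, 19.6 and 17.7 CPM to 13.7, 14.7 and 10.0 CPM in Sin3Bsg1 (-0.50 ± 0.11, adjusted p = 0.00369).

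The Sema3e window is shown because it was the rising member with the largest log2 fold change in sgCtrL and because its window held a match to the gamma-activated site, the letters TTCNNNGAA known from promoters of IFNγ-induced genes. The window lies at chr5:14025026-14025325 on the plus strand of GRCm38.p6, again 250 bases before and 50 after the RefSeq start. The match, in capitals, lies after that start, with its first base 41 bases from it.
Sema3e: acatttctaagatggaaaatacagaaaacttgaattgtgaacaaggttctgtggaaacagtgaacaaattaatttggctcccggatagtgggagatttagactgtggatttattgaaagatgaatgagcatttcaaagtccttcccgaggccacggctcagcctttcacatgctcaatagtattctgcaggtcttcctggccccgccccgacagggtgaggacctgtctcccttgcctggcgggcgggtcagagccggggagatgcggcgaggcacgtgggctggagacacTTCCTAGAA
Searched on both strands, the motif was in 3 of the 76 member windows (3.947%, in Efna3, Epha3 and Sema3e) and in 8.298% of all windows. The interferon-stimulated response element, TTTCNNTTTC, was in 2 of the 76 (2.632%, in Plxnc1 and Sema6b) and in 3.443% of all windows. These are matches of letters only, and both shares were below those of all windows.

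Slit2 rose with IFNγ in both genotypes, by 0.48 ± 0.05 in sgCtrL (adjusted p = 3.35e-06) and 0.35 ± 0.05 in Sin3Bsg1 (adjusted p = 1.03e-04), with the library values given above, while its relative Slit1, near 1 CPM, fell (log2 fold changes of -1.13 ± 0.36 and -0.99 ± 0.31). Sema3d, a gene lower in Sin3Bsg1, likewise rose with IFNγ by 0.36 ± 0.09 and 0.44 ± 0.09 (adjusted p = 0.00436 and 0.00216). Its Sin3Bsg1 libraries with IFNγ, at 14.5, 12.9 and 12.5 CPM, remained below the sgCtrL libraries without it, at 22.5, 19.0 and 19.6 CPM. Ntn1 rose by 0.25 ± 0.04 and 0.13 ± 0.04, the latter near the threshold (adjusted p = 0.0272) and lost in 7 of the 12 fits that left out 1 library, in DESeq2 (adjusted p = 0.0942), with other size factors (0.0684) and with either other filter on low counts (0.211 without a filter and 0.0591 with at least 10 counts in every library). The rises of Sema3c, a secreted class 3 ligand, were 0.47 ± 0.05 and 0.54 ± 0.05, and those of the ligand Efna5 were 0.44 ± 0.05 and 0.40 ± 0.05. Sema7a, a membrane-anchored semaphorin near 1 CPM, passed in Sin3Bsg1, from 0.571, 0.827 and 0.860 CPM to 1.92, 1.37 and 1.29 CPM (1.02 ± 0.33, adjusted p = 0.0302, lost in 4 of 12 fits that left out 1 library), and in sgCtrL its groups overlapped at 0.647, 0.918 and 0.802 CPM and 0.646, 1.40 and 1.17 CPM.

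Several transmembrane semaphorins fell with IFNγ. Sema4g, higher in Sin3Bsg1, fell in both genotypes by nearly the same amount, -1.31 ± 0.07 in sgCtrL (adjusted p = 2.51e-10) and -1.32 ± 0.06 in Sin3Bsg1 (adjusted p = 4.97e-11). Its Sin3Bsg1 libraries with IFNγ, at 25.3, 26.5 and 23.6 CPM, were then below the sgCtrL libraries without it, at 31.8, 31.1 and 32.7 CPM. Sema4a was at 11.2, 11.6 and 11.3 CPM in sgCtrL without IFNγ and 5.82, 5.44 and 5.14 CPM with it, and at 12.4, 12.8 and 10.6 CPM and 6.18, 7.15 and 5.58 CPM in Sin3Bsg1, log2 fold changes of -1.06 ± 0.11 (adjusted p = 3.11e-06) and -0.92 ± 0.11 (adjusted p = 9.12e-06). Neither genotype overlapped between treatments. Sema5a went from 2.86, 3.26 and 2.73 CPM to 0.298, 0.340 and 0.856 CPM in sgCtrL and from 2.51, 3.0 and 3.14 CPM to 0.585, 1.05 and 0.730 CPM in Sin3Bsg1, falling by 2.56 and by 1.86 on the log2 scale. Sema6a fell by as much, but on 7, 2 and 2 counts in sgCtrL and 33, 6 and 21 counts in Sin3Bsg1 with IFNγ. Sema6c went from 4.64, 4.09 and 3.96 CPM to 2.29, 2.91 and 2.21 CPM in sgCtrL and from 3.62, 3.05 and 3.53 CPM to 1.84, 1.74 and 1.5 CPM in Sin3Bsg1, falling by 0.77 and by 1.0.

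**Figure D4:**
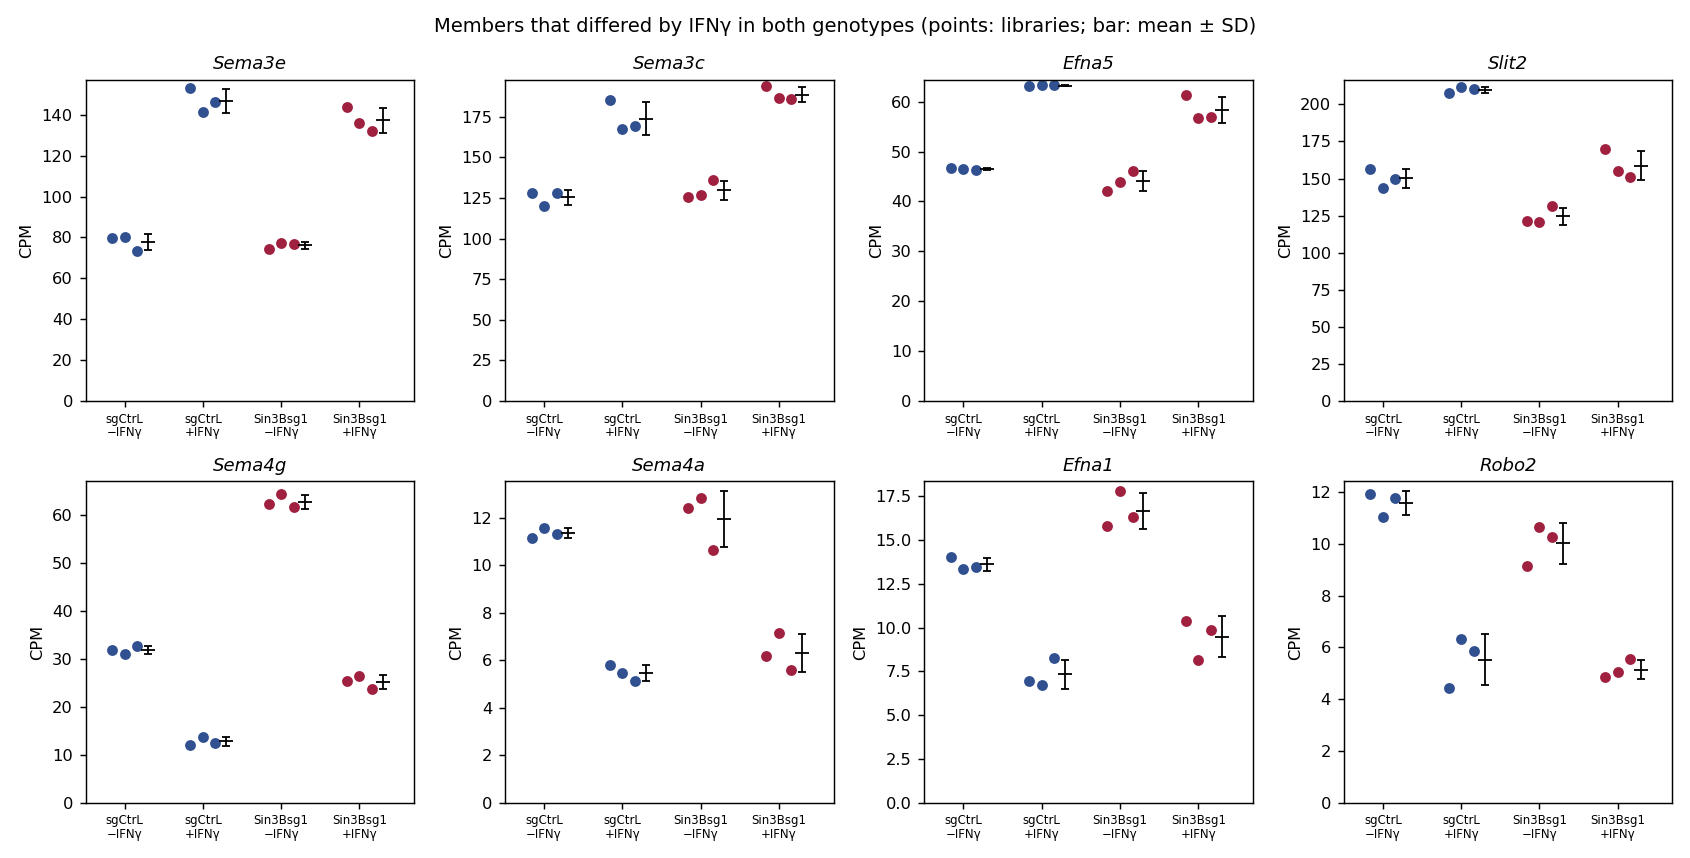
Levels in CPM of 8 members called by IFNγ in both genotypes, by library (n = 3 a group), for sgCtrL (blue) and Sin3Bsg1 (red) without and with 10 ng per ml IFNγ; bars are mean ± SD and each axis starts at 0. Sema3e, Sema3c, Efna5 and Slit2 (upper row) are higher and Sema4g, Sema4a, Efna1 and Robo2 (lower row) lower with IFNγ in each genotype.

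Receptors of each system were also among those that fell with IFNγ, and no receptor rose past the threshold in either genotype. Robo2, the more abundant slit receptor, was at 11.9, 11.1 and 11.8 CPM in sgCtrL without IFNγ and 4.42, 6.31 and 5.86 CPM with it, and at 9.14, 10.7 and 10.3 CPM and 4.85, 5.05 and 5.54 CPM in Sin3Bsg1, log2 fold changes of -1.05 ± 0.13 (adjusted p = 8.56e-06) and -0.96 ± 0.13 (adjusted p = 2.34e-05). Slit2 and Robo2 thus went in opposite directions, with no overlap of treatments for either. Plxna3, a receptor for secreted semaphorins with neuropilins, was at 47.1, 42.8 and 44.0 CPM and 25.9, 33.9 and 35.1 CPM in sgCtrL and at 46.1, 47.9 and 45.7 CPM and 32.3, 31.6 and 28.9 CPM in Sin3Bsg1, falling by 0.49 and by 0.59. Plxnb1 fell by 0.66 in sgCtrL (adjusted p = 0.00376), and in Sin3Bsg1 its value was -0.42 ± 0.17 (adjusted p = 0.0743). The B-type receptors Ephb3 and Ephb4 fell in both genotypes, with log2 fold changes of -0.51 ± 0.06 and -0.54 ± 0.06 for Ephb3 and of -0.39 ± 0.05 and -0.41 ± 0.05 for Ephb4, while for Ephb2, Ephb6, Epha2 and Epha4 no IFNγ comparison passed.

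Of the ephrins, Efna1 was at 14.0, 13.4 and 13.5 CPM in sgCtrL without IFNγ and 6.96, 6.72 and 8.29 CPM with it, and at 15.8, 17.8 and 16.3 CPM and 10.4, 8.16 and 9.88 CPM in Sin3Bsg1. Its log2 fold changes were -0.90 ± 0.11 (adjusted p = 1.02e-05) and -0.81 ± 0.10 (adjusted p = 1.49e-05), and the groups did not overlap. Efnb1 and Efnb2 fell by less, with log2 fold changes of -0.35 ± 0.10 and -0.30 ± 0.09 for Efnb1 and of -0.18 ± 0.05 and -0.21 ± 0.05 for Efnb2. Unc5b fell in sgCtrL by 0.29 (adjusted p = 2.34e-04), and its value in Sin3Bsg1 was -0.08 ± 0.05 (adjusted p = 0.206). Unc5c passed in Sin3Bsg1, at -0.46 ± 0.16, and its value in sgCtrL was -0.43 ± 0.18 (adjusted p = 0.08).

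The remaining members that fell with IFNγ had smaller log2 fold changes. In sgCtrL these were Efna4 (-0.38 ± 0.11), Nrp1 (-0.31 ± 0.08), Sema4c (-0.30 ± 0.08), Plxna1 (-0.25 ± 0.06), Sema3b (-0.23 ± 0.08), Nrp2 (-0.16 ± 0.05) and Sema3a (-0.14 ± 0.04). In Sin3Bsg1 they were Sema6d (-0.61 ± 0.17), Sema3b (-0.46 ± 0.08), Sema6b (-0.32 ± 0.06), Sema4c (-0.25 ± 0.08) and Plxna1 (-0.20 ± 0.06). Both neuropilins were thus lower with IFNγ in sgCtrL, and neither passed in Sin3Bsg1. There Nrp1 was at -0.18 ± 0.07 with no overlap of groups (adjusted p = 0.0873), and Nrp2 at -0.07 ± 0.05 (adjusted p = 0.352). The 21 members that did not pass in sgCtrL ranged from -0.43 to 0.65 and the 23 in Sin3Bsg1 from -0.58 to 0.78.

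Whether IFNγ acted differently in the 2 genotypes was tested by the interaction of genotype and treatment. None of the 50 members passed in edgeR or in DESeq2. In edgeR 0.114% of all genes passed, and 2 of the 50 had an unadjusted p under 0.05, as did 5.43% of all genes. These were Unc5b, with an interaction of 0.20 ± 0.07 on the log2 scale (adjusted p = 0.67), and Sema6b, with -0.22 ± 0.08 (adjusted p = 0.766). For Sema4g the interaction was -0.01 ± 0.09 and for Sema3e -0.07 ± 0.07. A member that passed by IFNγ in 1 genotype and not in the other, such as Sema7a or Plxnb1, was therefore not shown to differ between genotypes.

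**Figure D5:**
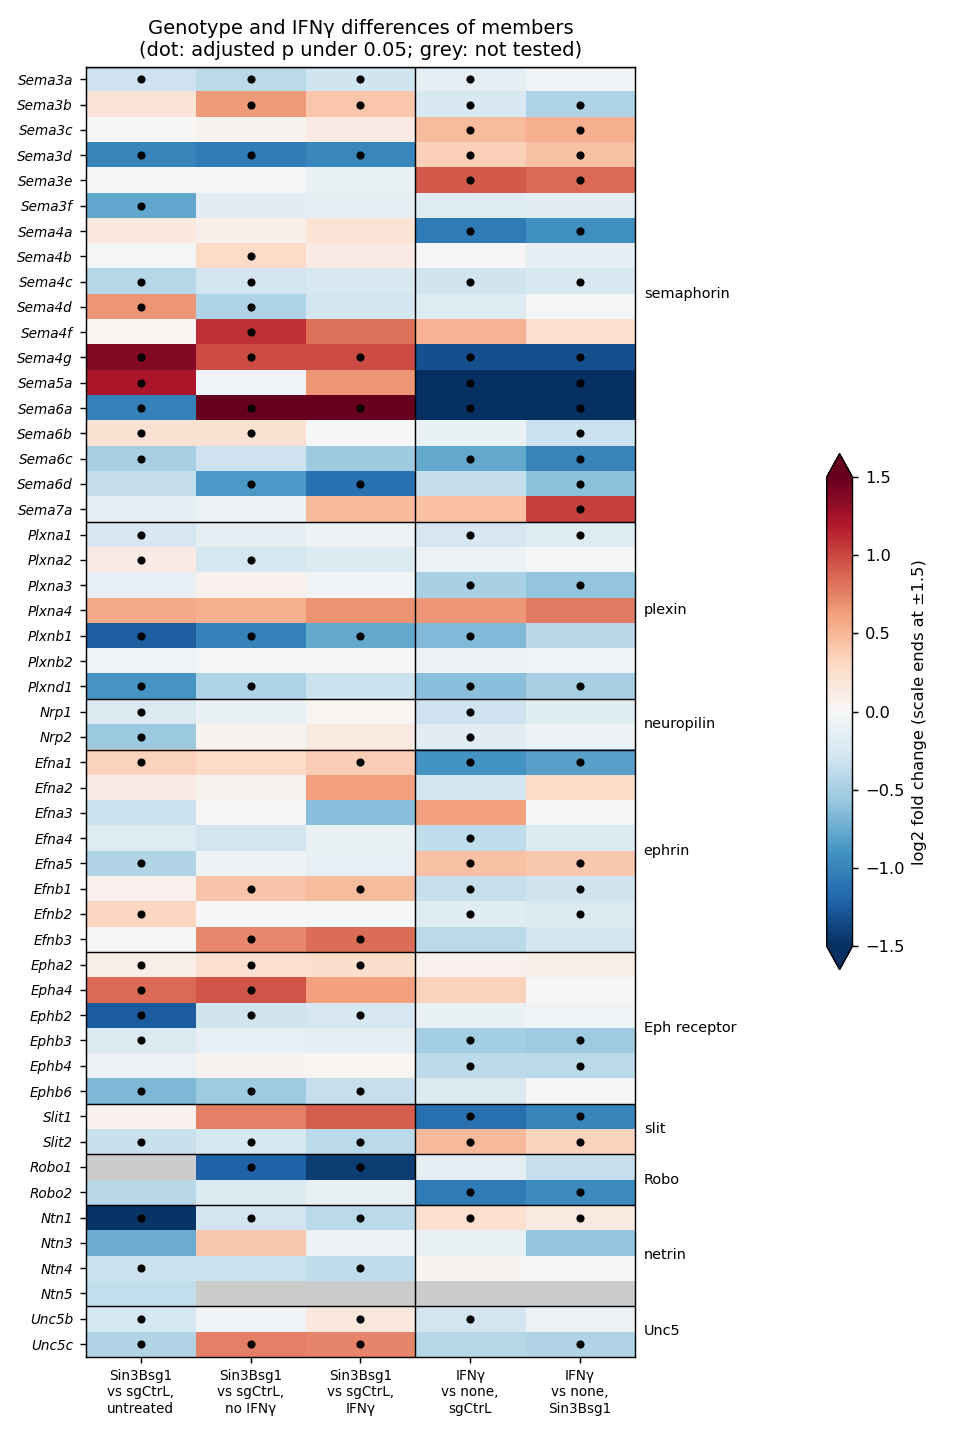
Log2 fold change of the 51 tested members (rows, by family) in the 3 genotype and 2 IFNγ comparisons (columns), red for higher and blue for lower, with the colour scale ending at ±1.5; a dot marks an adjusted p under 0.05 and grey a member not tested in that table. Of the 51, 45 carry at least 1 dot, and the IFNγ columns hold 23 and 20 lower members.

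Beyond the ligands and receptors, 72 other genes of the pathway were read from the same fits, among them co-receptors, other guidance ligands and the cytoplasmic proteins that carry the signal to actin. In the untreated experiment 31 of 57 tested passed by genotype, 13 higher and 18 lower, 54.4% against 30.7% of all genes. Without IFNγ 14 of 58 passed, 6 higher and 8 lower, 24.1% against 17.2% of all genes, and with IFNγ 17 of 58 passed, 10 higher and 7 lower, 29.3% against 16.5%. Nrcam, a cell adhesion molecule that joins neuropilin complexes, fell in Sin3Bsg1, with log2 fold changes of -0.90 ± 0.16, -1.28 ± 0.19 and -1.13 ± 0.21. Ptk7, a pseudokinase co-receptor, fell likewise, with values of -0.81 ± 0.05, -0.64 ± 0.05 and -0.45 ± 0.06. The adaptor Grb7 rose by 1.51 ± 0.05, 1.03 ± 0.07 and 1.40 ± 0.08, and Dpysl3, a collapsin response mediator protein, fell, with values of -0.39 ± 0.03, -0.42 ± 0.05 and -0.22 ± 0.05.

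With IFNγ the other pathway genes also split mostly downwards, 7 higher and 25 lower of 58 in sgCtrL and 6 higher and 21 lower in Sin3Bsg1. Of all genes 15.7% were higher and 14.5% lower in sgCtrL, and 16.1% and 12.3% in Sin3Bsg1. The medians were -0.14 and -0.12 over the list, against -0.00062 and 0.00519 over all genes. Wnt5a and the netrin-like Ntng1 were among the ligands that fell in sgCtrL, with log2 fold changes of -1.38 ± 0.29 and -1.16 ± 0.12. The kinases Rock1 and Rock2, which act on actin downstream of RhoA, rose in sgCtrL by 0.34 ± 0.06 and 0.30 ± 0.05 and in Sin3Bsg1 by 0.32 ± 0.06 and 0.34 ± 0.05.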

How the data were processed

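RNA from 16 libraries of KPC1199 cells was analysed from 2 tables of gene-level counts, 4 libraries untreated and 12 in the IFNγ experiment. The values the authors deposited are estimated counts per gene, of which 85.8% (untreated) and 90.6% (IFNγ) were whole, and they were rounded to whole numbers before testing. The study's methods name HISAT2 alignment to mm9 and featureCounts counting, whereas the submitters' processing notes list fastp, HISAT2, StringTie, DESeq2 and mm39. Tool versions, annotation and strand setting are not given in the sources used here. In the tables sgCtrL libraries bear a lacZ guide's name, matched to sgCtrL because no other guide was left. Columns of group means were left out.

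Each table was fitted apart with edgeR 4.0.16 in R 4.3.3 (TMM scaling, filterByExpr, glmQLFit and glmQLFTest, two-sided). The 12 IFNγ libraries shared 1 fit, with group means and contrasts for genotype, IFNγ and their interaction. P-values were adjusted by Benjamini-Hochberg over the 14820 (untreated) or 14913 (IFNγ) genes tested, with a threshold of 0.05, and the code was tested on simulated data, where the share of false calls was above the nominal rate for the untreated comparison of 2 libraries with 2. CPM used TMM-scaled library sizes, and TPM used the deposited gene lengths. Values are log2 fold changes ± SE for differences and mean ± SD for levels.

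Members, lists and tests were chosen with earlier results of these data known. Members named with their library values were those past the threshold with a log2 fold change of at least 0.58 in size and a mean of at least 1 CPM, and the member of highest TPM in each of the 9 families. Other members past the threshold were named with their log2 fold change. Alternatives were DESeq2 1.42.0, other size factors, no filter or at least 10 counts in every library, the replicate number as a block, a fit of only the 6 libraries compared, and leaving out each library. Promoter windows came from RefSeq on GRCm38.p6, and exon sharing came from GENCODE vM39 on GRCm39. No promoter was shown for members without an entry.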

Additional observations from a re-analysis of the deposited data

Results flagged for a closer look

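For 5 members the genotype difference went in opposite directions in the experiments, with no overlap of groups in either, and this is why each is listed. The difference between the experiments was not tested. Nrp2 had a log2 difference of Sin3Bsg1 minus sgCtrL of -0.56 in the untreated experiment and 0.05 without IFNγ, where the second did not pass the threshold. Plxna2, a receptor for class 3 and class 6 semaphorins, had 0.12 and -0.27. For Plxna2, 16.8% of the exon bases are shared with other features on the opposite strand. Sema4d had 0.66 and -0.46, Sema6a had -1.01 and 1.67, and Unc5c had -0.45 and 0.76. In the untreated experiment groups of 2 libraries did not overlap for 63.2% of all genes tested, and without IFNγ groups of 3 did not overlap for 39.2%.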

How the results depend on the processing

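Counts of members called kept within 1.5 times under DESeq2, other size factors and both other filters. They moved further for members higher in Sin3Bsg1. With IFNγ that count was 9 and fell to 5 when only the 6 libraries compared were fitted and to 5 without sgCtrL with IFNγ replicate 2. Without IFNγ it was 11 and became 7 without Sin3Bsg1 without IFNγ replicate 2 and 6 without sgCtrL without IFNγ replicate 2. Over all fits that left out 1 library it ranged from 6 to 12 without IFNγ and from 5 to 12 with IFNγ, and in the untreated experiment from 6 to 11 around 9. The cause was not tested.

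Among named members, 92 differences were called, and 1357 of their 1460 alternative values stayed past the threshold, 103 did not and 0 changed direction. Of the 103, 82 came from leaving out 1 library, in 19 of the 92 differences. Beside those given with the results, calls lost in some of these fits were Efna1 (3 of 12) and Efnb3 (2 of 12) by genotype with IFNγ, Sema6a by genotype with IFNγ (4 of 12), and, by IFNγ, Nrp2 (7 of 12), Sema3a (3 of 12) and Sema3b (8 of 12) in sgCtrL and Sema6d (2 of 12) and Unc5c (7 of 12) in Sin3Bsg1. The remaining 21 came from other alternatives. Those not given with the results or below were, by IFNγ in sgCtrL, Nrp2 with only the 6 libraries compared (adjusted p = 0.0824), Sema3a without a filter (0.0574), and Sema3b in DESeq2 (0.0955), without a filter (0.138) and with the 6 libraries (0.102). Without the library that stood apart, sgCtrL with IFNγ replicate 1, the falls of Nrp2 (-0.11, adjusted p = 0.0624) and Sema3b (-0.24, adjusted p = 0.0672) with IFNγ in sgCtrL were lost in edgeR.

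With the replicate number as a block, 22 members were lower and 10 higher by genotype in the untreated experiment, and 2 calls of named members were lost, Sema3b with IFNγ in sgCtrL (adjusted p = 0.056) and Unc5c with IFNγ in Sin3Bsg1 (adjusted p = 0.0545). Deviations from the group means correlated from -0.0484 to 0.166 between same-numbered libraries in the IFNγ experiment, and from -0.189 to 0.107 between differently numbered ones. In the untreated experiment the values were 0.0175 and -0.0175, which with 2 libraries a group are bound to mirror each other. Whether the numbers pair the samples was therefore not settled. Members with a mean under 1 CPM in at least 1 group, such as Robo1, Sema6a, Sema4f and Sema7a, rest on few counts, and for the 21 members not tested no difference was detectable at this depth.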
